A study of Homo sapiens and Mus musculus with 16 samples.

Results

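The respiratory chain subunit genes are the nuclear genes whose names mark them as parts of complexes I to V of the inner mitochondrial membrane. Members were the rows of the mRNA table whose gene name began with NDUF and a letter A, B, C, S or V with a number, was SDHA, SDHB, SDHC or SDHD, or began with UQCR, with COX4 to COX8 or with ATP5. The rule used names and no measured value. It gave 89 of the 22314 genes in the table: 38 for complex I, 4 for complex II, 9 for complex III, 18 for complex IV and 20 for complex V. It also took in 9 rows that are not subunits, described below, and it placed NDUFA4 with complex I, although that protein is now counted with complex IV.

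The libraries were made from SK-HEP-1, a cell line grown from a human liver tumour. Cells received DMSO (the solvent control, named U for untreated) or 0.5 mg/ml of an ethanol extract of *Antrodia cinnamomea* fruiting bodies (AcFBE, named T for treated) for 2 or 4 h, which gave the libraries 2U, 2T, 4U and 4T. The labels give 0.5 mg/ml for DMSO as well. There was 1 mRNA library per condition, all 4 sequenced with SOLiD 3, so no value below has a replicate error, the comparisons within a time have no test, and a difference between libraries cannot be told apart from a difference between cultures or library preparations. The series also holds 12 miRNA libraries, which were not used here. Of 10 hepatocyte markers 8 were listed at 0 in all 4 libraries and of 8 endothelial markers 6 were, and of 6 mesenchymal or stromal markers 2 were. Of the last, *VIM*, a filament gene, had 6465 to 13625 FPKM, *THY1* had 25.5 to 55.6 FPKM and *FN1* had 4.92 to 14.5 FPKM. *COL1A1* had 0.27 FPKM in 4T and 0 elsewhere. The hepatocyte marker *SERPINA1* had 8.59 to 18.7 FPKM and the endothelial marker *ENG* had 8.65 to 24.8 FPKM, both above *FN1* in every library. The hepatocyte marker *AFP* and the endothelial marker *ESAM* were under 1 FPKM throughout. FPKM (fragments per kilobase of transcript, scaled to the mapped fragments of the library) is a level per length. How far it can be compared between genes was not tested, and differences between genes are given as listed. The table gives no read counts, so no counting interval is given. In a bulk library, less of a transcript in each cell and fewer cells that hold it cannot be told apart.

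The respiratory chain passes electrons from NADH (complex I) and succinate (complex II) through complex III and cytochrome c to complex IV, which reduces oxygen. Complexes I, III and IV pump protons, and complex V, the ATP synthase, makes ATP from the returning protons. The mitochondrial genome encodes a few central subunits of complexes I, III, IV and V, while all subunits of complex II and the remaining subunits of the others come from nuclear genes such as those described here. The genes of the mitochondrial genome are not analysed here.

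Of the 89 members, 7 were listed at 0 in all 4 libraries, 3 were above 0 with a mean under 1 FPKM, and 79 had a mean of at least 1 FPKM over the 4 libraries. The last were compared between libraries (5445 genes of the whole table passed the same minimum), and 48 of them had a mean of at least 100 FPKM. The 7 at 0 were forms made mostly in particular tissues or conditions: *COX4I2*, *COX6A2*, *COX6B2*, *COX7A1*, *COX7B2*, *COX8C* and *NDUFA4L2*. Their widely used counterparts stood among the higher levels. *COX4I1* had 1751, 1183, 1434 and 1102 FPKM in 2U, 2T, 4U and 4T (all series of 4 values below keep this order), *COX6A1* had 311, 232, 249.5 and 247 FPKM and *COX7A2* had 350.4, 172, 258 and 193 FPKM.

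All members together summed to 28189, 22456, 23280.0 and 23544 FPKM, or 3.45, 2.86, 2.75 and 2.85% of the FPKM in the table. Complex V had the highest sum in 2U, 2T and 4T, and complex I had it in 4U. Complex V summed to 10512, 8346, 7026 and 8848 FPKM. Its untreated libraries thus held both the highest and the lowest sum, with the treated libraries in between. Complex I summed to 7231, 6812, 8182 and 7098 FPKM, complex IV to 6483, 4573, 5523 and 4880.0 FPKM, and complex III to 3791, 2533, 2397 and 2524 FPKM. Complex II, with 4 genes, stayed between 152 and 194 FPKM.

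**Figure D1:**
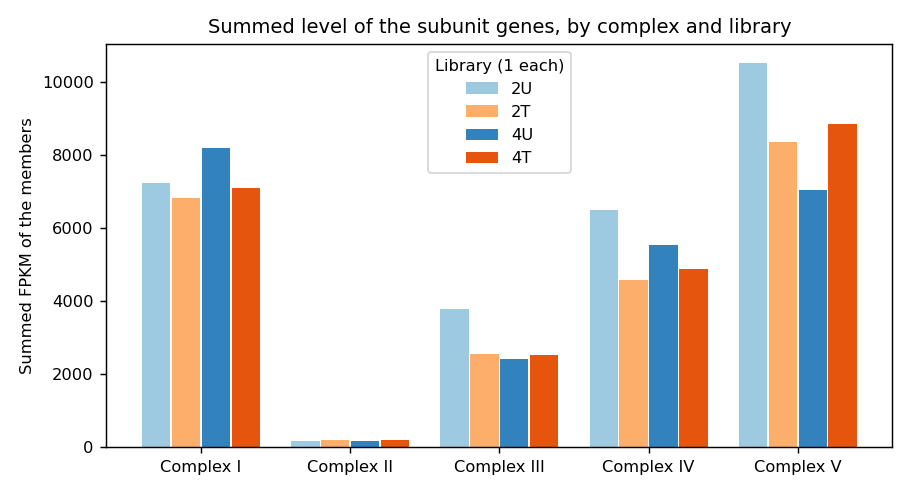
Summed FPKM (vertical axis) of the members of each complex in the 4 libraries, 1 bar per library. For complex V the untreated libraries are the highest (2U, 10512) and the lowest (4U, 7026), and for complex IV both treated libraries (4573 and 4880.0) lie below both untreated ones.

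Ratios were taken as log2(FPKM treated / FPKM untreated) within a time, without a pseudocount, for members above 0 in both libraries, and a member was called when the ratio reached 2-fold. At 2 h the median over 75 members was -0.10, against 0.03 over all genes, and 36 members were above 0. There were 11 members at least 2-fold higher in 2T and 7 at least 2-fold lower, whereas 22.6% of all genes were higher and 18.7% were lower. At 4 h the median over 79 members was 0.27, against -0.35 over all genes, and 48 members were above 0. There were 21 members at least 2-fold higher in 4T and 5 at least 2-fold lower, against 16.4% and 27.7% of all genes. As a share, 26.6% of the members were called higher and 6.33% lower at 4 h, and 14.7% and 9.33% at 2 h. Both shares were under those of all genes at 2 h, and at 4 h the share called higher was above that of all genes and the share called lower was under it. The 2 h and 4 h comparisons share no library.

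The ratio of treated to untreated also moved with the GC content of the coding sequence, over the whole table and over the members. Across genes, which share the same libraries and do not replicate each other, Spearman's correlation between coding GC and the log2 ratio at 4 h was -0.67 for all genes (n = 5088) and -0.75 for the members (n = 77). At 2 h it was -0.25 (n = 4932) and -0.45 (n = 73). Between libraries of the same treatment it was -0.40 (n = 4927) and -0.73 (n = 73) for 4T to 2T. For 4U to 2U it was 0.23 (n = 5026) and -0.07 (n = 75). A correlation with coding GC was thus not limited to treated against untreated libraries. The subunit genes cover a wide range of GC, so coding GC is given beside the members the results turn on. When each member was set against the median of all genes in the same 5% bin of coding GC (GC-centred, chosen after seeing the data), the calls became 6 higher and 7 lower at 2 h, where 20.8% and 17.8% of all genes were called, and 6 higher and 1 lower at 4 h, where 9.87% and 10.6% were. The GC-centred medians of the members were -0.17 and 0.38. The part of base composition in the results was not tested beyond these values.

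**Figure D2:**
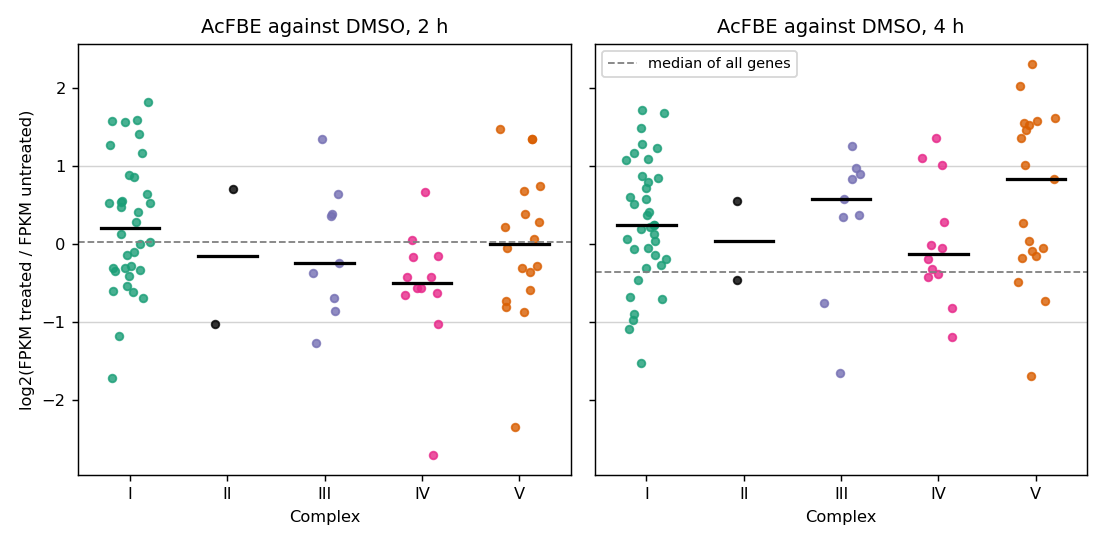
Log2 ratio of FPKM in AcFBE-treated to untreated cells (vertical axis) for each member of complexes I to V with a ratio, at 2 h (left) and 4 h (right). Points are genes, black bars the median of a complex, the dashed line the median of all genes and the pale lines 2-fold. The complex V median is 0.00 at 2 h and 0.84 at 4 h, and that of complex IV is -0.49 and -0.12.

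Complex I takes electrons from NADH through a chain of iron-sulfur clusters to ubiquinone. Its median log2 ratio was 0.21 at 2 h (34 members with a ratio, 7 higher and 2 lower by 2-fold) and 0.24 at 4 h (37 members, 8 higher and 2 lower). The 7 core subunits that nuclear genes encode had medians of 0.05 and 0.19, and the 30 accessory subunits 0.21 and 0.24. The core genes went different ways. *NDUFV1*, which binds the flavin next to the NADH site, had 215, 65.4, 116 and 40.1 FPKM, log2 ratios of -1.72 and -1.53. Both treated libraries lay below both untreated ones. *NDUFV2*, its iron-sulfur partner, had 9.66, 21.6, 18.7 and 32.5 FPKM (1.16 and 0.79), and both treated libraries lay above both untreated ones. The coding GC of *NDUFV1* is 60.5% and that of *NDUFV2* 45.2%.

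*NDUFS1*, the largest iron-sulfur subunit, was low at 2.56, 3.40, 1.49 and 4.93 FPKM, with log2 ratios of 0.41 at 2 h and 1.72 at 4 h. It also had the highest GC-centred ratio among the core genes at 4 h, 1.08. *NDUFS3*, a subunit of the peripheral arm, was listed at 0 in 2U and 2T, while 4U had 148 and 4T had 169 FPKM. *NDUFS7*, which holds the last cluster before ubiquinone, had 87.1, 262, 279 and 174 FPKM. Its 2U value stood below the other 3 libraries, and the log2 ratio was 1.59 at 2 h and -0.68 at 4 h. When GC-centred, its 4 h ratio turned to 0.51. *NDUFS8*, another cluster protein and the most abundant member of complex I, had 1343, 1016, 1667 and 851 FPKM (-0.40 and -0.97), lower in the treated library at both times, and 0.10 at 4 h when GC-centred.

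The accessory subunits surround the core and serve its assembly and stability. *NDUFS4*, an accessory subunit at the NADH-oxidising end, had 16.95, 50.2, 28.6 and 80.5 FPKM (1.57 and 1.49), and *NDUFB3*, a small membrane-arm subunit, had 3.61, 10.7, 5.86 and 14.2 FPKM (1.57 and 1.28). In both genes the treated library was at least 2-fold higher at both times, and neither treated library overlapped the untreated ones. At 4 h the other complex I genes past 2-fold upward were *NDUFA1* (1.08), *NDUFA4* (1.10), *NDUFA9* (1.17), *NDUFA12* (1.23), *NDUFC1* (1.68) and *NDUFS1*, and downward *NDUFA11* (-1.08) besides *NDUFV1*. *NDUFA1* had 81.3, 126, 88.7 and 188 FPKM, *NDUFA9* had 122, 179.7, 86.7 and 195 FPKM and *NDUFA12* had 103, 149, 100.2 and 236 FPKM. In each the 4T library was the highest. At 2 h *NDUFB5* (1.41), *NDUFB6* (1.27), *NDUFB7* (1.82), *NDUFS7* and *NDUFV2* passed 2-fold upward with *NDUFS4* and *NDUFB3*, and *NDUFC1* (-1.17) downward with *NDUFV1*. *NDUFB7*, a small membrane-arm subunit, had 101, 357, 426 and 308 FPKM, which was the pattern of *NDUFS7*: 2U alone was low. Its 4 h ratio of -0.47 turned to 0.72 when GC-centred. Both genes have the highest coding GC of complex I, 65.9% and 66.2%.

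Several complex I genes differed little between libraries. *NDUFB10* had 313, 320.0, 317 and 278 FPKM, *NDUFB2* had 353, 329, 288 and 316 FPKM and *NDUFS6* had 188, 170.4, 149.5 and 145 FPKM. These are accessory subunits of the membrane arm (*NDUFB2*, *NDUFB10*) and of the peripheral arm (*NDUFS6*), and none reached 1.5-fold between treated and untreated at either time. *NDUFB8*, with 914, 743, 626 and 645 FPKM, *NDUFA13*, with 851, 1035, 1015 and 846 FPKM, and *NDUFB9*, with 774, 504, 636 and 610.0 FPKM, were the next most abundant after *NDUFS8*. The log2 ratio of *NDUFA13* was 0.28 at 2 h and -0.26 at 4 h. *NDUFA4* had 325, 202, 128 and 274 FPKM, so that 4U was the lowest library and 2U the highest.

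Complex II oxidises succinate and is shared between the citric acid cycle and the respiratory chain. *SDHA*, its flavoprotein, had 77.7, 38.4, 40.8 and 29.6 FPKM and *SDHB*, its iron-sulfur protein, had 93.2, 152, 110.4 and 162 FPKM. For *SDHA* the treated library was lower at both times (-1.02 and -0.46), and for *SDHB* it was higher at both times (0.71 and 0.56). The 4 h direction of *SDHA* turned to 0.27 when GC-centred. *SDHC* and *SDHD* anchor the complex in the membrane. *SDHC* had 0.0369, 0.184, 0.426 and 0.649 FPKM and *SDHD* had 0.0686, 1.39, 0.862 and 1.63 FPKM, both with a mean under 1 FPKM, and values above 0 but under 0.2 FPKM are listed in the 2 h libraries alone. The catalytic and anchor genes of the same complex thus differed in FPKM in every library.

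Complex III passes electrons from ubiquinol to cytochrome c. Its median was -0.24 at 2 h and 0.58 at 4 h over 9 members (1 higher and 1 lower at each time). The core proteins, which face the matrix, went opposite ways. *UQCRC1* had 1247, 518, 1076 and 342 FPKM (-1.27 and -1.65), with both treated libraries below both untreated ones, and *UQCRC2* had 16.9, 43.0, 16.6 and 39.5 FPKM (1.35 and 1.25), with both treated libraries above. Coding GC was 58.3% for *UQCRC1* and 46.1% for *UQCRC2*. *UQCRC1* was 74.0-fold above *UQCRC2* in FPKM in 2U and 8.66-fold above it in 4T.

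*UQCRFS1*, the Rieske iron-sulfur protein, had 437, 241, 208 and 270.3 FPKM, highest in 2U, with log2 ratios of -0.86 and 0.38. *UQCRH*, the hinge protein that helps cytochrome c dock, had 1216, 941, 556 and 1094 FPKM and its near copy *UQCRHL* had 596, 503, 265 and 473 FPKM. Their coding sequences are identical at 269 of 273 bases (98.5%), so reads could have been split between them, and each is uncertain on its own. In both, 4U was lowest and 2U highest. Of the small subunits, *UQCRB*, *UQCRQ* and *UQCR10* were higher in the treated library at both times, with log2 ratios from 0.35 to 0.90, and *UQCR11* was lower (-0.69 and -0.75). *UQCRB* was low, at 3.20, 5.01, 4.21 and 6.29 FPKM. Its coding GC is 41.4%, and its ratios turned to -0.08 at 2 h and -0.55 at 4 h when GC-centred. *UQCR11*, with 61.3%, then turned to 0.32 at 4 h, while *UQCRQ* and *UQCR10* kept their sign at both times. Leaving out *UQCRHL*, the median of complex III was -0.00 at 2 h and 0.48 at 4 h. Cytochrome c1 (*CYC1*), a complex III subunit outside the name rule, had 596, 366, 331 and 271 FPKM.

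Complex IV transfers electrons from cytochrome c to oxygen, and its nuclear subunits surround a core that the mitochondrial genome encodes. It had the lowest median at 2 h, -0.49 over 12 members (0 higher and 2 lower by 2-fold), and -0.12 at 4 h (3 higher and 1 lower). At 2 h the 2 members above 0 were *COX6C* (0.05) and *COX7A2L* (0.67), which is a factor for supercomplexes and not a subunit of complex IV. *COX4I1*, *COX5B*, *COX8A* and *COX7A2* were lower in the treated library at both times. *COX8A* had 1573, 1067, 1651 and 935 FPKM (-0.56 and -0.82), *COX5B* had 396, 297, 381 and 306 FPKM (-0.42 and -0.32) and *COX7A2* had log2 ratios of -1.03 and -0.42. Of these, *COX7A2* is low in coding GC, at 47.8%, and was the only member lower by 2-fold at 4 h after GC-centring. The 4 h ratios of *COX5B* (coding GC 60.2%) and *COX8A* (65.7%) then turned to 0.76 and 0.36, and *COX4I1* had -0.27.

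*COX7B*, *COX7C* and *COX6C*, small single-helix subunits, were at least 2-fold higher in 4T. *COX7B* had 258, 229, 139.6 and 358 FPKM, *COX7C* had 464, 419, 274 and 586 FPKM and *COX6C* had 33.5, 34.7, 25.7 and 52.0 FPKM. In all 3 genes 4U was the lowest and 4T the highest library, and their coding GC lies between 44.6 and 47.1%. *COX5A* (-0.65 and 0.28), *COX6A1* (-0.42 and -0.02) and *COX6B1* (-0.62 and -0.05) were lower in 2T and nearer to even at 4 h. With the subunits alone, and *NDUFA4* moved to complex IV, the medians were -0.56 and -0.02.

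Complex V has a catalytic head in the matrix, a ring of c subunits in the membrane that turns with the protons, and a peripheral stalk that holds the head still. Its median was 0.00 at 2 h (18 members, 3 higher and 1 lower) and 0.84 at 4 h (19 members, 9 higher and 1 lower). Within the head, *ATP5A1* (alpha) had 742, 867, 365 and 933 FPKM and *ATP5B* (beta, which holds the catalytic sites) had 5384, 3254, 3151 and 3246 FPKM, the highest of all members in every library. The log2 ratios were 0.23 and 1.35 for *ATP5A1* and -0.73 and 0.04 for *ATP5B*. *ATP5C1* (gamma, the turning shaft) had 107, 140.0, 57.4 and 177 FPKM (0.39 and 1.62). Alpha and gamma were lowest in 4U, and the 4 h ratios came with a 4U below 2U (log2 4U to 2U of -1.02 and -0.90).

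The small head subunits at the foot of the shaft went opposite ways. *ATP5D* (delta) had 124, 24.6, 60.4 and 18.7 FPKM (-2.34 and -1.69), with both treated libraries below both untreated ones. *ATP5E* (epsilon) had 88.6, 225.2, 128 and 367 FPKM (1.35 and 1.52), with both treated libraries above. *ATP5D* has the highest coding GC of the tested members, 68.3%, and *ATP5E* has 45.1%. A processed copy of *ATP5E*, *ATP5EP2*, had 157, 262, 125 and 345 FPKM (0.74 and 1.46), and reads of the pair may have been shared.

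The c ring is made of a single protein that *ATP5G1*, *ATP5G2* and *ATP5G3* all encode. *ATP5G1* had 1186, 973, 982 and 882 FPKM, *ATP5G2* had 757, 435, 754 and 455 FPKM and *ATP5G3* had 449.8, 365, 421 and 398 FPKM. All 3 were lower in the treated library at both times, with log2 ratios from -0.80 to -0.29 at 2 h and from -0.73 to -0.08 at 4 h, and none reached 2-fold. The 4 h direction of single genes depended on the scaling. Centred on the median of all genes, *ATP5G1* had 0.20, *ATP5G2* -0.37 and *ATP5G3* 0.27. When GC-centred, the values were -0.04, 0.00 and -0.72 in this order. Over the end of the coding sequence, which holds the mature protein, *ATP5G1* and *ATP5G2* are identical at 88.9% of bases, and either is identical to *ATP5G3* at 81.3%, and reads from that stretch may have been shared.

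In the stalk and the membrane part the median was 0.06 at 2 h and 1.02 at 4 h over 7 members. *ATP5F1* (subunit b) had 220.1, 354, 83.9 and 342 FPKM, *ATP5O* (the cap of the stalk, OSCP) had 736, 768, 293 and 872 FPKM and *ATP5H* (subunit d) had 7.16, 18.2, 9.30 and 18.9 FPKM. *ATP5F1* had the highest 4 h log2 ratio of any subunit, 2.03, and *ATP5O* had 1.57. In both, 4U lay below the other 3 libraries. *ATP5H* was higher in both treated libraries (1.34 and 1.02), but its 4 h ratio turned to -0.11 when GC-centred. *ATP5J* (coupling factor 6) had 40.6, 31.6, 32.1 and 93.8 FPKM, with 4T alone high, and *ATP5I* (subunit e) had 116, 322, 201 and 359 FPKM, with 2U the lowest. *ATP5L* (subunit g) had 168, 112, 164 and 159 FPKM and *ATP5J2* (subunit f) had 165, 159, 168 and 149 FPKM, and both stayed within 2-fold.

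The 9 rows that the name rule takes in but that are not subunits are named here with their values. *COX4NB*, an old name of a gene for a membrane insertion complex of the endoplasmic reticulum, had 33.3, 5.11, 10.5 and 4.61 FPKM (-2.70 and -1.19), the lowest ratio of all rows at 2 h. *COX7A2L* had 92.2, 147, 231 and 202 FPKM, *ATP5SL* had 13.5, 16.3, 6.56 and 4.69 FPKM and *ATP5S* had 0.591, 0.158, 0 and 0.374 FPKM. *ATP5L2*, a copy of *ATP5L* with 282 of 300 coding bases in common (94.0%), had 36.1, 19.9, 23.7 and 28.6 FPKM. *ATP5J2-PTCD1*, a read-through of neighbouring genes, had 14.3, 0, 0.20 and 0.994 FPKM, and its 4 h ratio of 2.31, the highest of all rows, rests on values under 1 FPKM. *NDUFA4L2*, *UQCRHL* and *ATP5EP2* are given above. Without the 9 rows the medians of the members were -0.10 and 0.27, and the calls were 11 higher and 6 lower at 2 h and 19 higher and 4 lower at 4 h.

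Among the 79 compared members, 4 were listed at 0 in some library. *NDUFB11*, a subunit of the membrane arm of complex I, was at 0 in 2U and 2T, while 4U had 564 and 4T had 347 FPKM, and *NDUFS3* had the same record. Among all genes, 21 were at 0 in both 2 h libraries and at 100 FPKM or more in both 4 h libraries, among them *RPL10*, *FAU* and *TPI1*, genes for ribosomal proteins and a glycolytic enzyme, and 0 genes had the reverse record. For these genes only the listing at 0 is given, with no ratio across time. *NDUFA5*, a peripheral-arm subunit, had 0.840, 0, 1.64 and 2.71 FPKM.

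At both times 5 members were at least 2-fold higher in the treated library, *NDUFS4*, *NDUFB3*, *UQCRC2*, *ATP5E* and *ATP5H*, and 4 were at least 2-fold lower, *NDUFV1*, *UQCRC1*, *ATP5D* and *COX4NB*. These are 6.67% and 5.33% of the 75 members with both ratios, where 8.31% and 10.2% of all genes were called higher or lower at both times, so that both shares of the members were under those of all genes. The ratio had the same sign at both times in 52 of 75 members (69.3%) and in 3429 of 5199 genes (66.0%). A limma fit of log2(FPKM + 1) over the 4 libraries, with treatment and time as terms and 1 residual degree of freedom (chosen after seeing the data), was run over all 5445 genes. It takes its error from the difference between the 2 h and 4 h effects and not from replicates. The error of each gene was moderated toward a trend with level over all genes, with 5.39 prior degrees of freedom. With Benjamini-Hochberg adjustment 9 genes (0.165%) passed 0.05, and of the 79 members 0 did, the smallest adjusted p from limma being 0.147 for *ATP5D*. At an unadjusted p under 0.05 there were 12 members (8 higher and 4 lower, 15.2%) against 19.6% of all genes. In these 9 genes, picked for their change at both times, the treated libraries lay on one side of both untreated libraries. The share of all genes with that record was not taken, so it adds no support to the calls. Coding GC was between 42.9 and 46.1% in the 5 higher genes and between 58.1 and 68.3% in the 4 lower ones. When GC-centred, 0 members were at least 2-fold higher at both times. The 4 lower genes were then within 2-fold at 4 h: *NDUFV1* -0.45, *UQCRC1* -0.92, *ATP5D* -0.51 and *COX4NB* -0.46. None of the 9 was thus called at both times after GC-centring.

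**Figure D3:**
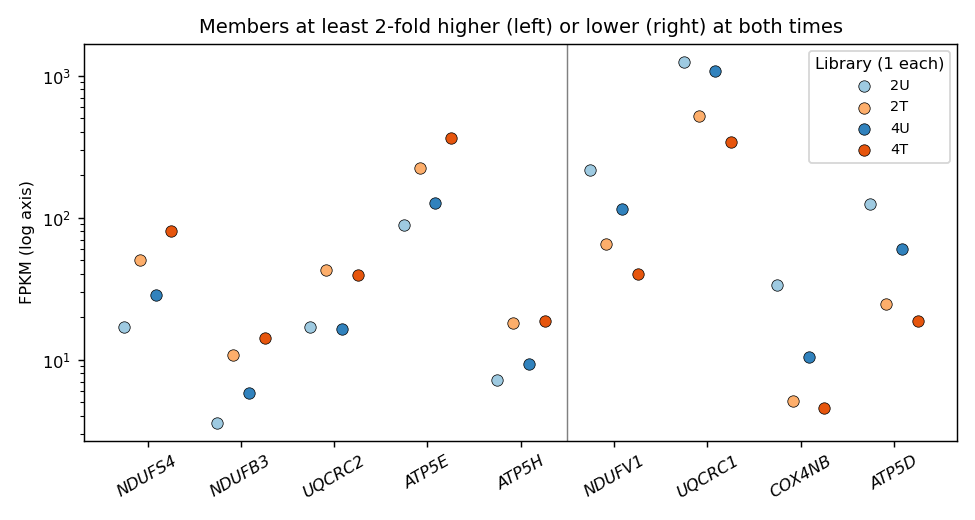
FPKM on a log axis of the 9 members at least 2-fold higher (left of the line) or lower (right) in the treated library at both times, 1 point per library. The genes were picked for this change. In each, both treated points (orange) lie on the same side of both untreated points (blue). *NDUFV1* had 65.4 and 40.1 FPKM treated against 215 and 116 untreated.

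The coding ends of 6 of these genes, 3 lower and 3 higher, are shown because they make the difference in base composition visible. Each line holds the last 120 coding bases before the stop codon, on the coding strand, with G and C in capitals, read from the GENCODE annotation of GRCh37.
NDUFV1: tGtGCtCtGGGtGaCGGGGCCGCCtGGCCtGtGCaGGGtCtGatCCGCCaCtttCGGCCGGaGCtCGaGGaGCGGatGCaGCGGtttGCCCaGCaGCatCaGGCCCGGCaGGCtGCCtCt
UQCRC1: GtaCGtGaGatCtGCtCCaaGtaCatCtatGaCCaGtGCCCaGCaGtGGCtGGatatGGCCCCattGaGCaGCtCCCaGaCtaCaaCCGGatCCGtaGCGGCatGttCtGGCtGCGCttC
ATP5D: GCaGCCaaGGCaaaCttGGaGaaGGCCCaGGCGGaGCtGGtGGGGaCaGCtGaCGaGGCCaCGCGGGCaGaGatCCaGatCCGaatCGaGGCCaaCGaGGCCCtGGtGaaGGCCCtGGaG
NDUFS4: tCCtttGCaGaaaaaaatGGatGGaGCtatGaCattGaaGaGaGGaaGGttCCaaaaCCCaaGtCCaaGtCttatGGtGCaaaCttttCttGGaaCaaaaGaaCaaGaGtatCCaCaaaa
UQCRC2: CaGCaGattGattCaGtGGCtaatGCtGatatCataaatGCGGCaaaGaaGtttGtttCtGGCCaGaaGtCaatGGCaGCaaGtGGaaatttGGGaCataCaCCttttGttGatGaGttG
ATP5E: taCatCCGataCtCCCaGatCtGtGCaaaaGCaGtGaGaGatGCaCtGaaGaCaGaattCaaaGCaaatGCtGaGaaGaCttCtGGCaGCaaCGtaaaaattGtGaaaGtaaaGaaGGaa
The printed stretches hold 69.2, 56.7 and 65.8% G or C in *NDUFV1*, *UQCRC1* and *ATP5D*, and 38.3, 41.7 and 40.8% in *NDUFS4*, *UQCRC2* and *ATP5E*. The gene of *NDUFV1* lies at chr11:67373124-67380025 (plus strand, 10 exons), *UQCRC1* at chr3:48636435-48648409 (minus, 13 exons), *ATP5D* at chr19:1241745-1244824 (plus, 4 exons), *NDUFS4* at chr5:52856463-52979168 (plus, 5 exons), *UQCRC2* at chr16:21964609-21994981 (plus, 14 exons) and *ATP5E* at chr20:57600530-57607400 (minus, 3 exons), all on GRCh37.

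By class of coding GC, the members under 50% had a median log2 ratio of 1.09 at 4 h (27 of 30 above 0), those from 50 to 55% had 0.28 (14 of 19) and those of 55% or more had -0.46 (5 of 28). All genes had 0.89, -0.11 and -0.95 in the same classes, so that the members lay above all genes in each class at 4 h. At 2 h the members had 0.41 (20 of 29 above 0), -0.31 (7 of 19) and -0.40 (7 of 25), and all genes 0.53, -0.04 and -0.22, so that the members lay below all genes in each class. Of the 21 members called higher at 4 h, 18 had a coding GC under 50%, and the 5 called lower all had 55% or more. The length of the coding sequence followed the 4 h ratio less, with a Spearman correlation of -0.26 over all genes and -0.05 over the members. Within complex I the Spearman correlation with GC was -0.84 at 4 h (n = 36) and within complex V -0.61 (n = 18).

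**Figure D4:**
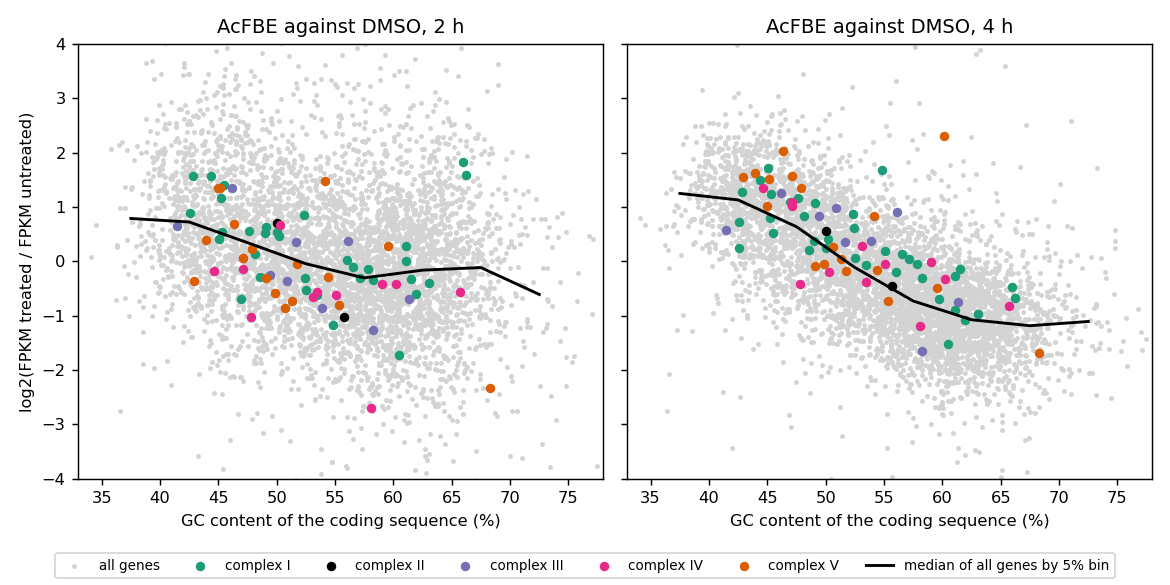
Log2 ratio of FPKM in treated to untreated cells (vertical axis) against the GC content of the coding sequence in percent (horizontal axis), at 2 h (left) and 4 h (right). Grey points are all genes with both values (63 of 4932 at 2 h and 29 of 5088 at 4 h lie outside the axes), coloured points the members by complex and the line the median of all genes in 5% bins, which goes from 1.25 at the low end to -1.11 at the high end at 4 h.

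After GC-centring, the Spearman correlation between ratio and coding GC over the members was -0.13 at 2 h and 0.13 at 4 h, and 58 of 77 members lay above 0 at 4 h against 31 of 73 at 2 h. The complexes then lay close together at 4 h, with medians of 0.43 for complex I, 0.47 for II, 0.46 for III, 0.37 for IV and 0.31 for V. At 2 h they were 0.17, 0.02, -0.33, -0.47 and -0.28 in the same order. The members called higher at 4 h were then *ATP5F1*, *ATP5J2-PTCD1*, *NDUFC1*, *NDUFS1*, *UQCR10* and *UQCRH*, and at 2 h *ATP5E*, *ATP5I*, *NDUFB5*, *NDUFB7*, *NDUFS7* and *UQCRC2*. Those called lower were *COX7A2* at 4 h and *ATP5D*, *ATP5J*, *COX4NB*, *COX7A2*, *NDUFA4*, *NDUFC1* and *NDUFV1* at 2 h. *ATP5J2-PTCD1* and *COX4NB* are not subunits. *ATP5J2-PTCD1* passed the minimum level through 14.3 FPKM in 2U, and its 4 h ratio rests on values under 1 FPKM.

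The libraries of the same treatment give a view of how far levels differed without AcFBE as the contrast, although they share libraries with the comparisons above. Between 4U and 2U the median over 77 members was -0.21 (5 higher and 12 lower by 2-fold) against 0.15 over all genes, of which 21.6% were higher and 9.89% lower. Between 4T and 2T the median over 75 members was 0.10 (2 higher and 1 lower) against -0.08 over all genes, of which 4.15% were higher and 5.19% lower. Fewer members, and a smaller share of the table, thus passed 2-fold between the treated libraries than between the untreated ones. Members at least 2-fold lower in 4U than in 2U included *ATP5F1* (-1.39), *ATP5O* (-1.33), *NDUFA4* (-1.34), *UQCRH* (-1.13) and *UQCRFS1* (-1.07). Those higher in 4U were led by *NDUFB7* (2.08) and *NDUFS7* (1.68).

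Other large complexes are given for scale, with no test of the difference. The 78 mitochondrial ribosomal protein genes (75 compared), whose products translate the mitochondrial genome, had medians of -0.10 at 2 h and 0.33 at 4 h, close in value to the -0.10 and 0.27 of the respiratory chain. Cytosolic ribosomal protein genes had -0.21 and 0.15 (102 compared), and proteasome subunit genes had 1.11 and 0.66 (37 compared), 19 of 36 being at least 2-fold higher at 2 h. The respiratory chain members thus had a lower median than the proteasome at both times.

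Genes that serve the chain without being in it were taken from lists chosen with earlier results known. Of 52 assembly factors 37 were in the table and 28 were compared, with medians of 0.03 at 2 h and 0.02 at 4 h. At each time 6 were at least 2-fold higher and 4 at least 2-fold lower, of 27 with a ratio at 2 h and 28 at 4 h. Of all genes 22.6% were higher and 18.7% lower at 2 h, and 16.4% and 27.7% at 4 h. *COX17*, a copper chaperone for complex IV, had 5.42, 12.9, 6.72 and 15.3 FPKM (1.25 and 1.19), and *COX16*, another complex IV factor, had 1.59 and 1.26. *FOXRED1*, a complex I assembly factor, had 20.4, 7.13, 12.3 and 3.71 FPKM (-1.51 and -1.72), and *TACO1*, an activator of translation of a complex IV subunit, had -1.52 and -1.35. Of the mobile carriers and the subunits that the name rule misses, 6 were compared, with medians of -0.31 and 0.44, and 1 was at least 2-fold higher at each time. Cytochrome c (*CYCS*), which carries electrons between complexes III and IV and is released in apoptosis, had 0.63, 9.17, 4.52 and 12.9 FPKM, with 2U the lowest and log2 ratios of 3.87 and 1.52. Coding GC is 44.8% for *CYCS*, 42.5% for *COX16* and 54.5% for *COX17*. All genes in the 5% bin of coding GC from 40% had medians of 0.72 at 2 h and 1.13 at 4 h. *NDUFAB1*, the acyl carrier protein found in complex I, had 95.8, 75.8, 72.3 and 73.3 FPKM, and *ATPIF1*, the inhibitor of ATP synthase, had 81.4, 143, 81.8 and 117 FPKM.

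Most of the 15 regulators known to act on respiratory chain genes, 8, were under a mean of 1 FPKM. *PPARGC1A*, a coactivator of mitochondrial biogenesis, was listed at 0 in all 4 libraries, and *NRF1* had 0.47, 0.18, 0.33 and 0.35 FPKM. *GABPA*, an ETS factor, had 0, 1.71, 0.20 and 1.98 FPKM, above 1 FPKM in the treated libraries alone. *TFAM*, which packs and transcribes mitochondrial DNA, had 1.17, 4.26, 1.84 and 3.10 FPKM (1.87 and 0.75), and *TFB2M* had 0.23, 0, 0 and 0.68 FPKM. *YY1* had 0.78, 2.21, 0.92 and 2.01 FPKM (1.497 and 1.13). Coding GC is 40.2% for *TFAM* and 58.5% for *YY1*. The 7 regulators with a mean of at least 1 FPKM, *TFAM* and *YY1* among them, were compared. Their medians were 0.63 at 2 h (3 higher and 0 lower by 2-fold) and -1.63 at 4 h (1 higher and 4 lower). Of all genes 22.6% were higher and 18.7% lower at 2 h, and 16.4% and 27.7% at 4 h. The 4 regulators lower at 4 h were *POLRMT*, the mitochondrial RNA polymerase (-2.98), *MYC* (-2.25, with 5.14, 15.3, 54.96 and 11.6 FPKM), *PPRC1* (-1.79) and *HCFC1* (-1.63). Their coding GC is 66.3, 58.8, 57.7 and 63.0% in this order. Of all genes with a coding GC of 55% or more, 1255 of 2672 were at least 2-fold lower at 4 h, with a median of -0.95.

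The promoters of the members were searched for motifs of these factors in RefSeq windows from 250 bases before to 50 after the start (GRCh38.p14), which 67 members had. The letters GCGCA, any base and GCGC in a row (NRF1), CCGGAAG (ETS factors such as GABPA), AAGATGGC (YY1) and TATAAA (the TATA box) were searched on both strands. NRF1 letters stood in 16 members (23.9%, against 6.28% of all 27305 promoters and 13.6% of the 4302 of compared genes). ETS letters stood in 20 (29.9%, against 10.7 and 23.6%), YY1 letters in 11 (16.4%, against 3.03 and 7.16%) and the TATA box in 7 (10.4%, against 11.95 and 5.39%). At least 1 of the first 3 motifs was in 38 of the 67. Windows of 5 members are shown, 2 each for the first motifs and 1 for YY1, with the motif, in either orientation, in capitals and the strand of the gene read 5′ to 3′.
UQCRC1, NRF1: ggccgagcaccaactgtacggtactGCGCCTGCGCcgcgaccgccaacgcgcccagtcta
NDUFA11, NRF1: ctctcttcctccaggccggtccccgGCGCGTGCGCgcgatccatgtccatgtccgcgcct
UQCRH, ETS: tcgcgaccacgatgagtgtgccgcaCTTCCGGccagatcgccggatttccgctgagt
COX5B, ETS: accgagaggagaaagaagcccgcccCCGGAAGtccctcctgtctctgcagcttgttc
ATP5J, YY1: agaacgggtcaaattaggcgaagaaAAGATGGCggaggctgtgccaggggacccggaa
The windows lie at chr3:48609659-48609718, chr19:5903854-5903913, chr1:46303627-46303683, chr2:97646000-97646056 and chr21:25735079-25735136 in the order shown. A match in letters does not say that a factor was bound.

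The ratios were compared between members with and without each motif as a description. With NRF1 letters the 4 h median was 0.31 (14 members) and without 0.10 (48 members), and at 2 h it was -0.11 and -0.10. With ETS letters it was -0.02 (19) against 0.24 (43) at 4 h and -0.37 against 0.00 at 2 h. With YY1 letters it was 0.87 (11) against 0.13 (51) at 4 h and 0.55 against -0.16 at 2 h. With the TATA box it was 1.21 (6) against 0.16 (56) at 4 h and -0.08 against -0.10 at 2 h. When GC-centred, these 6 members ran from 0.18 (*NDUFA7*) to 0.62 (*UQCRC2*) at 4 h, where the median of all members was 0.38. GC-centred medians by motif were not taken, and the part of coding GC in these differences was not tested. The range within each group was wider than the distance between their medians, as in the YY1 group, which ran from -1.65 (*UQCRC1*) to 2.03 (*ATP5F1*) at 4 h.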

How the data were processed

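Polyadenylated RNA of 4 SK-HEP-1 cultures was sequenced by the authors after amplification of its cDNA with a single-cell protocol, mapped to hg19 and quantified with Cufflinks. The submitters' processing notes name TopHat and the study's methods name Bowtie with 2 mismatches allowed. Versions and strand handling are not given in the sources used here. The deposited values are FPKM per gene as the authors made them, without counts, so no counting error is given. A gene listed at 0 can be a failed estimate, and FPKM under 0.2 occur at 2 h (2656 genes in 2U, 1173 in 2T) but at 4 h in 0 genes, so the 2 h and 4 h columns differ in the smallest values listed, which ratios across time include.

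Samples were grouped by their labels, 1 library per condition. Log2 ratios of FPKM were computed without a pseudocount for genes with a mean of at least 1 FPKM over the 4 libraries and above 0 in both, and "called" means at least 2-fold. Medians and counts stand beside those of all genes, with no test within a time. A limma fit (3.58.1, R 4.3.3) with treatment and time as terms was added after seeing the data. The members and lists were chosen with earlier results of these data known. The naming rule took, per complex, the most abundant member and those with the highest and lowest ratios, members called at both times or listed at 0, complex II, the core of complex I, the head and c ring of complex V, tissue forms and rows that are not subunits. Other members are named after their values were seen, and a member of the core of complex I is not reported here. Coding sequences came from GENCODE v44lift37 (88 members matched, 87 with a coding sequence), and promoters from RefSeq. Scripts were tested on simulated data and used Python 3.11.15, numpy 2.4.6, pandas 2.3.3, scipy 1.17.1 and matplotlib 3.10.9. Alternatives covered pseudocounts of 1 and 0.2, the minimum level, scaling, 1.5-fold, subunits alone and GC-centring. The miRNA files were not used.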

Additional observations from a re-analysis of the deposited data

Results flagged for a closer look

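The complexes and members below had log2 ratios of treated to untreated of opposite sign at 2 h and 4 h, with a distance of at least 1 for single genes. The difference between the times was not tested, with 1 library per condition. Complex III had a median of -0.24 at 2 h and 0.58 at 4 h.

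Members lower in 2T and higher in 4T were *ATP5J*, coupling factor 6 of the ATP synthase stalk (-0.36 and 1.55), *COX7B* (-0.17 and 1.36) and *COX7C* (-0.15 and 1.10), small subunits of complex IV, and *NDUFA4* (-0.69 and 1.10). *NDUFC1*, an accessory subunit of complex I under 10 FPKM, had -1.17 and 1.68. In complex III they were *UQCRFS1*, the Rieske protein (-0.86 and 0.38), and *UQCRH* with its near copy *UQCRHL* (-0.37 and 0.98, and -0.24 and 0.84). *ATP5L2*, a copy of *ATP5L*, had -0.86 and 0.27.

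Members higher in 2T and lower in 4T were *NDUFB7* (1.82 and -0.47) and *NDUFS7* (1.59 and -0.68), both of complex I, with the 2U library the lowest of the 4. Centred on genes of the same coding GC they had 1.94 and 0.72, and 1.70 and 0.51, so that the opposite sign was lost. These are 11 of the 75 members with both ratios (14.7%), where 1237 of 5199 genes of the table (23.8%) had such a record.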

How the results depend on the processing

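Of the medians and counts recomputed under the alternatives, 135 stayed within the 95% rank interval of the median or within 1.5 times the count, and 13 moved further. Of the ratios of single members taken by the naming rule, 305 stayed within 0.5 on the log2 scale, 32 moved further and 1, past 2-fold as reported, reversed. For the members of that rule, the sign of the ratio turned in 11 of 66 cases under GC-centring and in 3 of 68 when centred on the median of all genes. Members named in the text outside the rule were not counted here. Some of them also turned under GC-centring, such as *UQCRB* at both times. The median of complex II, which rests on 2 genes, went to 1.51 at 2 h and 0.58 at 4 h with no minimum level and to 0.77 and 0.59 with FPKM scaled to the same total, since *SDHD* then passed the minimum. Centred on the median of all genes, the 4 h median of the members was 0.62, 29 members were higher and 3 lower at 4 h (23.6% and 16.4% of all genes), and the median of 4U to 2U was -0.36. At 1.5-fold there were 19 higher and 18 lower members at 2 h (32.2% and 29.9% of all genes) and 30 higher and 12 lower at 4 h (24.8% and 42.3%). Centred on genes of the same coding GC, chosen after seeing the data, there were 6 higher at 2 h and 6 higher and 1 lower at 4 h, and *ATP5H* at 4 h reversed to -0.11. The cause was not tested. With the time point as a block, limma called 0 members at an adjusted p of 0.05, and no other paired fit was run. No library could be left out with a ratio remaining at its time.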
